A study of Homo sapiens with 4 samples.

Results

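The genes described here are targets of the tumour suppressor p53 and genes of the mitochondrial route to apoptosis. They were profiled in the ovarian carcinoma line OVCAR-3, an established human line with mutant p53. The list names 38 genes, and each was sought in the platform's annotation by its symbol. A row of its own was found for 36 of them, among 18417 genes on single-symbol transcript clusters and 21214 clusters with any symbol. The levels of FDXR and BIRC3 were not analysed here. Of the 36 genes, 17 are p53 targets, 5 oppose cell death and 9 are the pore formers BAX and BAK1 with BH3-only genes. BBC3, also a BH3-only gene, is counted with the p53 targets. A further 5 act downstream of the mitochondrion as caspases or their partners. Each of the 36 was represented by 1 transcript cluster.

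The arrays labelled H1.3 (2 arrays) came from OVCAR-3 cells described as overexpressing the human linker histone H1.3, and the vector-only arrays (2 arrays) from OVCAR-3 cells transfected with a vector that lacks the H1.3 insert. All cells were grown in RPMI-1640 with serum, and no drug or damaging agent is named for either group. The labels call the replicates biological but say nothing of separate transfections, clones or pools, so the p-values reflect only array-to-array spread, part of which may be technical. The study asked which transcripts change when H1.3 is overexpressed in this line.

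Intact p53 is a transcription factor that is stabilised by DNA damage and other stress and binds paired decamer half-sites near its targets. It switches on genes for growth arrest, DNA repair and death. MDM2, a target itself, marks p53 for degradation and closes the loop. In the mitochondrial route, BH3-only proteins release BAX and BAK1 from BCL2, BCL2L1 and MCL1. Cytochrome c then leaves the mitochondrion, joins APAF1 and activates caspase 9, while DIABLO lifts the block that XIAP and its relatives place on caspases. Genes of both groups also respond to other transcription factors, and p53 is mutant in this line. Levels of the p53 targets are therefore not read here as a measure of p53 activity.

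The promoters show where such half-sites lie near the start of these genes. Windows from 250 bases before to 50 bases after a start site were available from RefSeq (GRCh38.p14) for 32 of the 38 genes. The p53 half-site consensus, which reads alike on both strands and was allowed to overlap itself, was matched in at least 1 window of 8 of the 32 genes (25.0%), and in 8.06% of all 27305 genes with a window. These 8 were DDB2, FAS, AEN, SESN1, PLK2, FDXR, BAK1 and CASP9. A pair of half-sites at most 13 bases apart was found in DDB2 alone among the 32, and in 10 of all 35116 windows. A match describes letters in the window and does not show binding. Sites outside the windows were not sought, so a gene without a match may have a site elsewhere. The measured p53 targets with a match are shown because a half-site lies near their start. Capitals mark the half-site.
DDB2, chr11:47214975-47215003, plus strand: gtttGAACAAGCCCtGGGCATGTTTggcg
FAS, chr10:88991299-88991328, plus strand: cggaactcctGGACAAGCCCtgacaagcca
AEN, chr15:88621296-88621325, plus strand: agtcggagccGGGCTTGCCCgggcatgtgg
SESN1, chr6:109009018-109009047, minus strand: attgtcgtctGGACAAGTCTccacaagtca
PLK2, chr5:58460199-58460228, minus strand: tggcgggacaAGACTTGCTTcccggccacg

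The gene for H1.3 itself did not measure higher in the arrays labelled H1.3. H1-3 had log2 levels of 7.47 and 7.69 in the arrays labelled H1.3, against 8.65 and 7.88 in the vector-only arrays. The groups did not overlap and ran against the label, with a limma adjusted p of 0.319. Among all clusters with a symbol, 40.6% had groups that did not overlap, and in 19.4% the H1.3 values were lower. The positions of its probes relative to the vector's insert are not stated here, so every direction below refers to the label of the arrays. All 8 epithelial carcinoma markers checked had log2 levels between 9.43 and 13.13 and a median difference of -0.04. None passed, and the groups did not overlap for EPCAM (-0.57, limma adjusted p 0.111), KRT18 (-0.29) and PAX8 (0.13). The 6 fibroblast, 4 endothelial and 4 measured leukocyte markers lay between 2.86 and 7.6, with median differences of 0.00, -0.02 and 0.14.

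None of the 36 genes passed limma at an adjusted p under 0.05 in either direction, where 0.504% of all clusters with a symbol passed (107 of 21214), 0.24% higher and 0.264% lower. The median difference over the 36 genes was 0.01 on the log2 scale, against 0.02 over all clusters. At an unadjusted limma p under 0.05 stood 9 genes (25.0%), 3 with a positive and 6 with a negative difference. Among all clusters the share was 11.5% (5.21% positive and 6.34% negative). All 9 genes had a mean at or above the median level of all clusters with a symbol, where 28 of the 36 lay. The other 8 were CDKN1A, PLK3, XPC, SESN1, AEN, BCL2, BIK and PMAIP1, whose lower signal limits what can be seen. These shares were not matched for signal level. The groups did not overlap for 16 of the 36 genes (44.4%), 8 in each direction, beside 40.6% of all clusters (21.2% higher and 19.4% lower). For 35 of the 36 genes the 95% confidence interval of the difference lay within a 2-fold change either way, as for 96.5% of all clusters. BIRC2 was the exception. In bulk RNA, less transcript in every cell and fewer cells holding the transcript cannot be told apart.

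**Figure D1:**
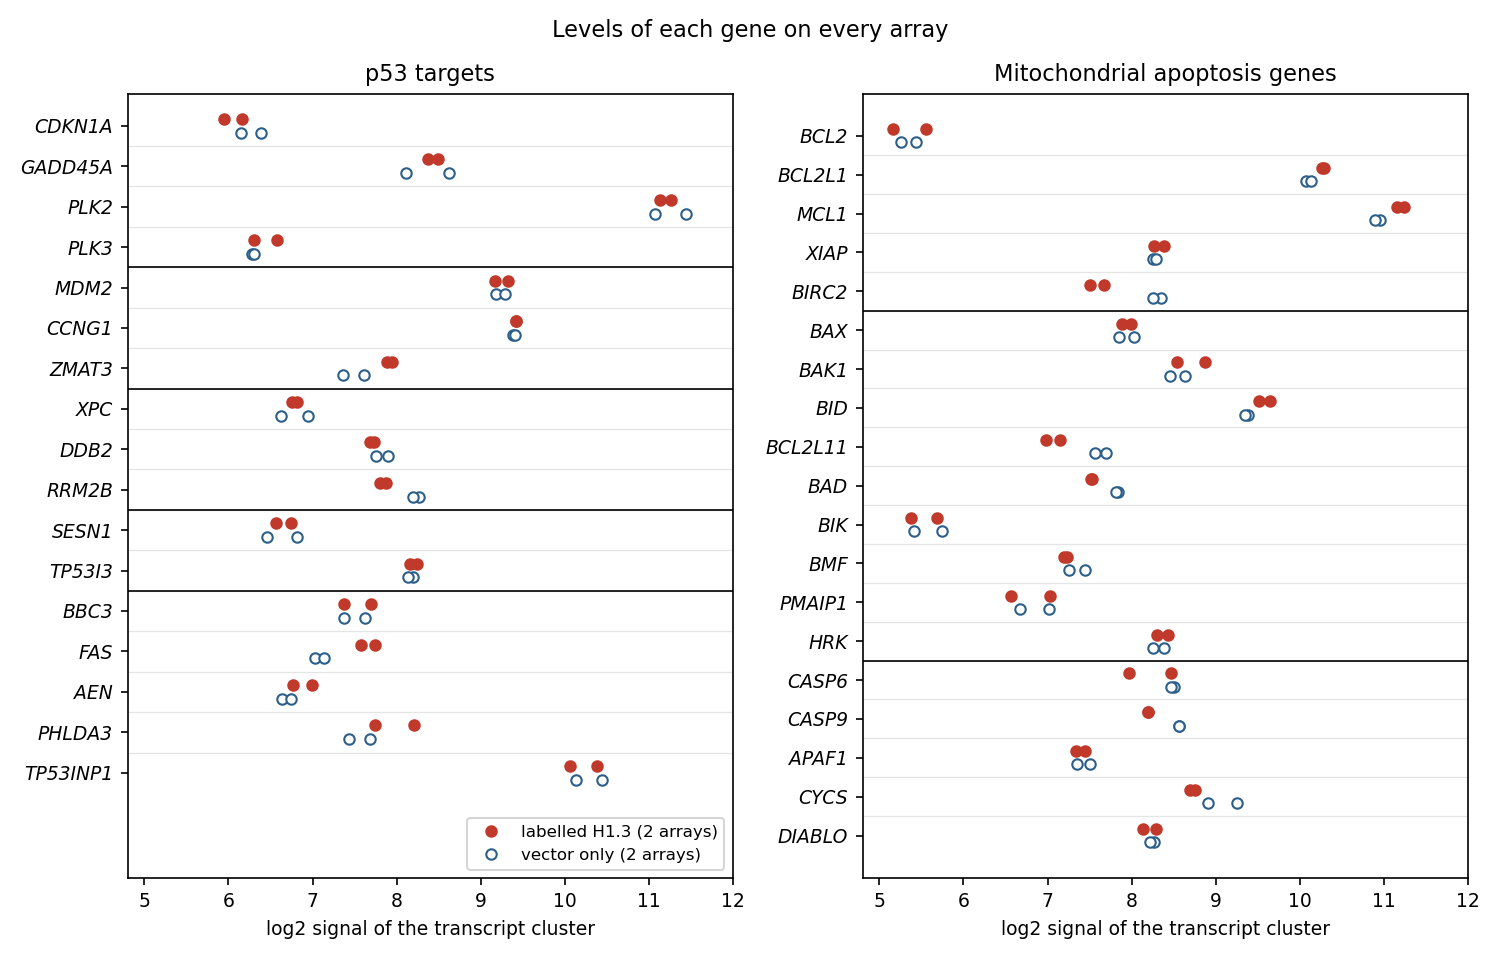
Log2 signal of the 36 measured genes on every array, with the 2 arrays labelled H1.3 as filled red points above the 2 vector-only arrays as open blue points. Black lines separate the functional groups. The groups overlap in 20 rows, and FAS, ZMAT3, RRM2B, BIRC2, BCL2L11, BAD, CASP9 and CYCS are among the 16 genes with separate groups.

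The 17 measured p53 targets had a median log2 difference of 0.02, with 11 positive, 5 negative and 1 at 0. None passed limma over all clusters, with adjusted p from 0.114 to 1. Growth arrest genes showed no shared direction. CDKN1A, the CDK inhibitor p21 and the best known p53 target, had log2 levels of 5.95 and 6.16 in the arrays labelled H1.3, against 6.39 and 6.15 in the vector-only arrays. Its groups overlapped, and the difference was -0.22 with a 95% interval from -0.55 to 0.12 and a limma adjusted p of 0.641. It ran from -0.34 to -0.10 with an array left out. GADD45A, a stress protein that slows the cell cycle, had levels of 8.37 and 8.49 in the arrays labelled H1.3, against 8.11 and 8.62 in the vector-only arrays, and the H1.3 values lay inside the vector-only range. PLK2 and PLK3, polo-like kinases of the stress response, had overlapping groups and differences of -0.07 and 0.15.

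Among the genes that feed back on p53, MDM2 and CCNG1 gave nearly the same values in both groups. MDM2 had log2 levels of 9.32 and 9.17 in the arrays labelled H1.3, against 9.18 and 9.29 in the vector-only arrays, a difference of 0.01 with a 95% interval from -0.28 to 0.30. CCNG1, cyclin G1, had 9.42 and 9.42 in the arrays labelled H1.3, against 9.39 and 9.41 in the vector-only arrays, so its groups were separated by only 0.01. ZMAT3, a zinc finger protein that binds RNA, stood apart from these. It had 7.95 and 7.89 in the arrays labelled H1.3, against 7.36 and 7.61 in the vector-only arrays. The groups did not overlap, and the difference of 0.44 ± 0.13 (SE) had a limma adjusted p of 0.234.

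No DNA repair target had a positive difference. RRM2B, the p53-inducible subunit of ribonucleotide reductase, had log2 levels of 7.80 and 7.88 in the arrays labelled H1.3, against 8.27 and 8.19 in the vector-only arrays. Its groups did not overlap, with a difference of -0.39 ± 0.12 (SE) and a limma adjusted p of 0.228. DDB2, which recognises ultraviolet lesions and has the paired half-sites printed above, had 7.68 and 7.73 in the arrays labelled H1.3, against 7.76 and 7.90 in the vector-only arrays, a difference of -0.13. XPC, its partner in nucleotide excision repair, differed by 0.00 with overlapping groups. The groups also overlapped for SESN1, a sestrin that restrains growth signalling (0.02), and for TP53I3, a quinone oxidoreductase (0.04).

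Targets with a role in death included the largest positive difference of all 36 genes. FAS, a death receptor of the cell surface, had log2 levels of 7.58 and 7.74 in the arrays labelled H1.3, against 7.03 and 7.14 in the vector-only arrays. Both H1.3 values lay above both vector-only values, and the difference of 0.58 ± 0.12 (SE), a 1.49-fold higher level, had a 95% interval from 0.29 to 0.87 and a limma adjusted p of 0.114. PHLDA3, an inhibitor of AKT signalling, had 8.21 and 7.74 in the arrays labelled H1.3, against 7.43 and 7.68 in the vector-only arrays. Its difference of 0.42 rested mainly on H1.3 replicate 1, without which it was 0.19. BBC3, the BH3-only protein PUMA, had 7.70 and 7.37 in the arrays labelled H1.3, against 7.38 and 7.63 in the vector-only arrays, with overlapping groups and a difference of 0.03 (95% interval -0.34 to 0.40). AEN, a nuclease active in dying cells, differed by 0.19, and TP53INP1, a stress protein of autophagy and death, by -0.07. The 5 targets with a half-site near the start therefore had differences of 0.58 (FAS), 0.19 (AEN), 0.02 (SESN1), -0.07 (PLK2) and -0.13 (DDB2), with no common direction.

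**Figure D2:**
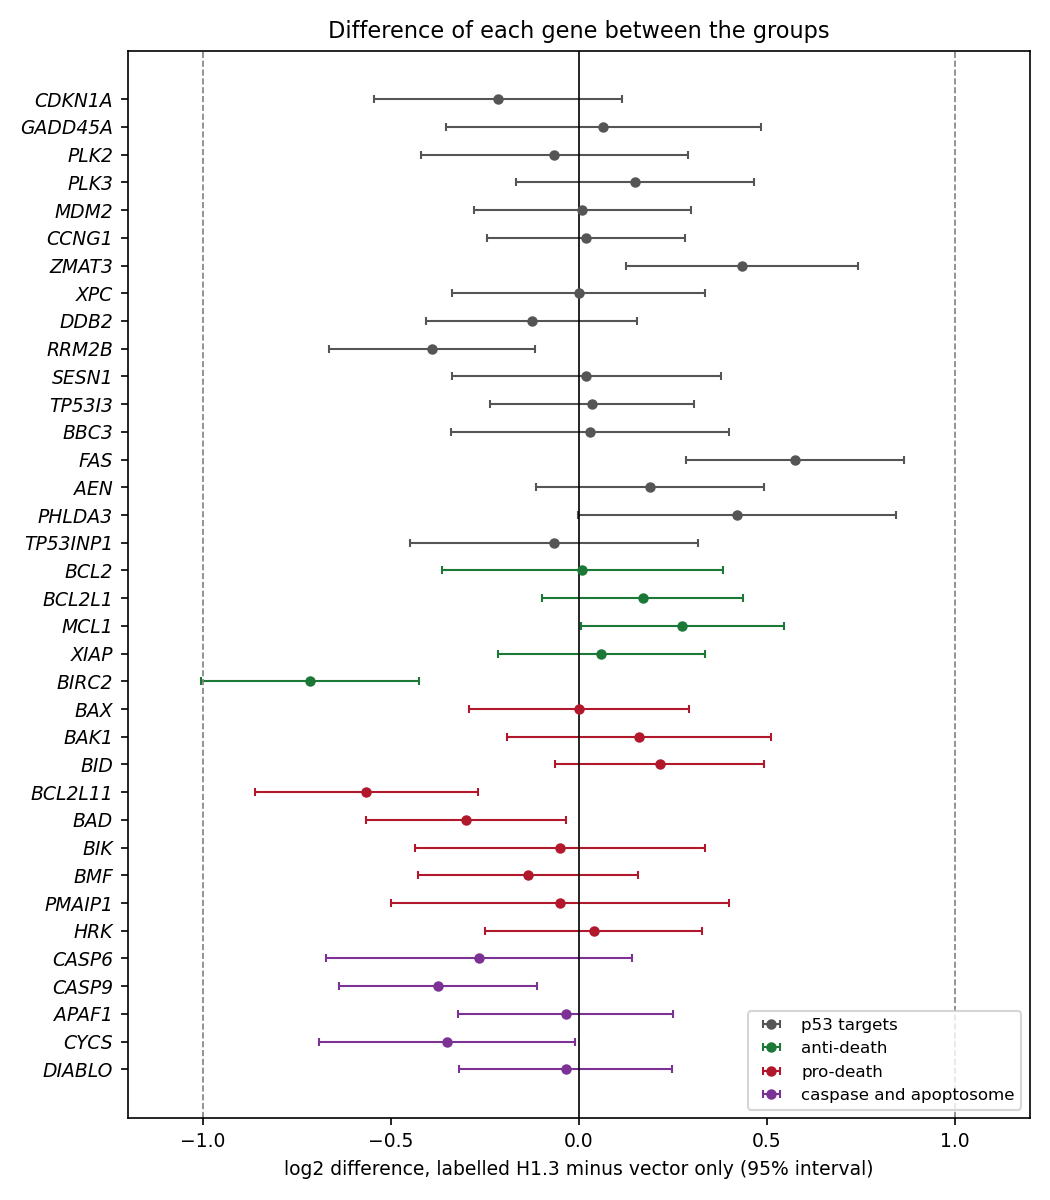
Log2 difference of each gene, arrays labelled H1.3 minus vector-only arrays, with its 95% confidence interval from limma (2 arrays a group). Colours give the functional group, and dashed lines mark a 2-fold change. The intervals of 27 genes include 0, and BIRC2 alone reaches past a dashed line.

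Among genes that oppose death, BIRC2 differed most. BIRC2, the ubiquitin ligase cIAP1, had log2 levels of 7.50 and 7.67 in the arrays labelled H1.3, against 8.35 and 8.25 in the vector-only arrays. Both H1.3 values lay well below both vector-only values. The difference of -0.72 ± 0.12 (SE), a level of 0.609 times that of the vector-only arrays, had a 95% interval from -1.01 to -0.42 and the smallest limma adjusted p of all 36 genes, 0.0786. It passed with a robust intensity trend in the variance model, at an adjusted p of 0.0356 in limma, and in no other of the alternative fits. XIAP, which inhibits caspases directly, had 8.39 and 8.27 in the arrays labelled H1.3, against 8.25 and 8.29 in the vector-only arrays, a difference of 0.06.

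Of the BCL2-like protectors, MCL1 and BCL2L1 had separate groups with higher values in the arrays labelled H1.3. MCL1, a short-lived protector, had log2 levels of 11.24 and 11.16 in the arrays labelled H1.3, against 10.95 and 10.90 in the vector-only arrays. The groups did not overlap, with a difference of 0.28 ± 0.12 (SE) and a limma adjusted p of 0.422. BCL2L1, which encodes BCL-XL, had 10.26 and 10.29 in the arrays labelled H1.3, against 10.08 and 10.13 in the vector-only arrays, also without overlap, at a difference of 0.17. BCL2 had 5.55 and 5.16 in the arrays labelled H1.3, against 5.26 and 5.43 in the vector-only arrays, so the H1.3 values enclosed the others, and the sign of its difference of 0.01 turned to -0.03 after a second quantile normalization. Over the 5 measured genes of this group the median difference was 0.06.

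The pore formers did not separate the groups. BAX had log2 levels of 7.99 and 7.89 in the arrays labelled H1.3, against 7.85 and 8.03 in the vector-only arrays, a difference of 0.00 with a 95% interval from -0.29 to 0.29. BAK1 had 8.87 and 8.54 in the arrays labelled H1.3, against 8.46 and 8.63 in the vector-only arrays, a difference of 0.16. Both sets overlapped, and for both the interval lay within a 1.5-fold change either way.

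Products of BH3-only genes sense death signals. Apart from BBC3, counted with the p53 targets, the BH3-only genes held 5 negative and 2 positive differences among 7. BCL2L11, which encodes BIM, had log2 levels of 6.98 and 7.15 in the arrays labelled H1.3, against 7.56 and 7.70 in the vector-only arrays. The groups did not overlap, and the difference of -0.57 ± 0.13 (SE) had a 95% interval from -0.86 to -0.27 and a limma adjusted p of 0.124. BAD, a sensor of growth factor withdrawal, had 7.53 and 7.52 in the arrays labelled H1.3, against 7.84 and 7.81 in the vector-only arrays. Its replicates agreed within 0.03 in each group, and the difference was -0.30 with an adjusted p of 0.362 in limma. BID, which death receptors cleave to reach the mitochondrion, had 9.65 and 9.52 in the arrays labelled H1.3, against 9.39 and 9.35 in the vector-only arrays, a difference of 0.22. PMAIP1, the p53 target NOXA, differed by -0.05, BIK by -0.05 and HRK by 0.04, each with overlapping groups. BMF, released from the cytoskeleton under stress, differed by -0.14. Over the 9 genes of this group with the pore formers the median difference was -0.05, and leaving out vector-only replicate 1 or 2 gave -0.22 or 0.11.

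Downstream of the mitochondrion all 5 differences were negative, and none passed limma, with adjusted p from 0.230 to 0.952. CASP9, the initiator caspase, gave the tightest pattern, with log2 levels of 8.20 and 8.19 in the arrays labelled H1.3, against 8.57 and 8.57 in the vector-only arrays. The difference was -0.38 ± 0.11 (SE) with a limma adjusted p of 0.230. CYCS, cytochrome c, had 8.70 and 8.76 in the arrays labelled H1.3, against 9.25 and 8.91 in the vector-only arrays. Its difference of -0.35 was -0.18 without vector-only replicate 1. CASP6, an executioner caspase, had 7.97 and 8.47 in the arrays labelled H1.3, against 8.50 and 8.47 in the vector-only arrays, and its difference of -0.27 rested on H1.3 replicate 1, without which it was -0.02. APAF1 and DIABLO differed by -0.04 each, with overlapping groups. The median of the group was -0.27, and -0.02 without H1.3 replicate 1.

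**Figure D3:**
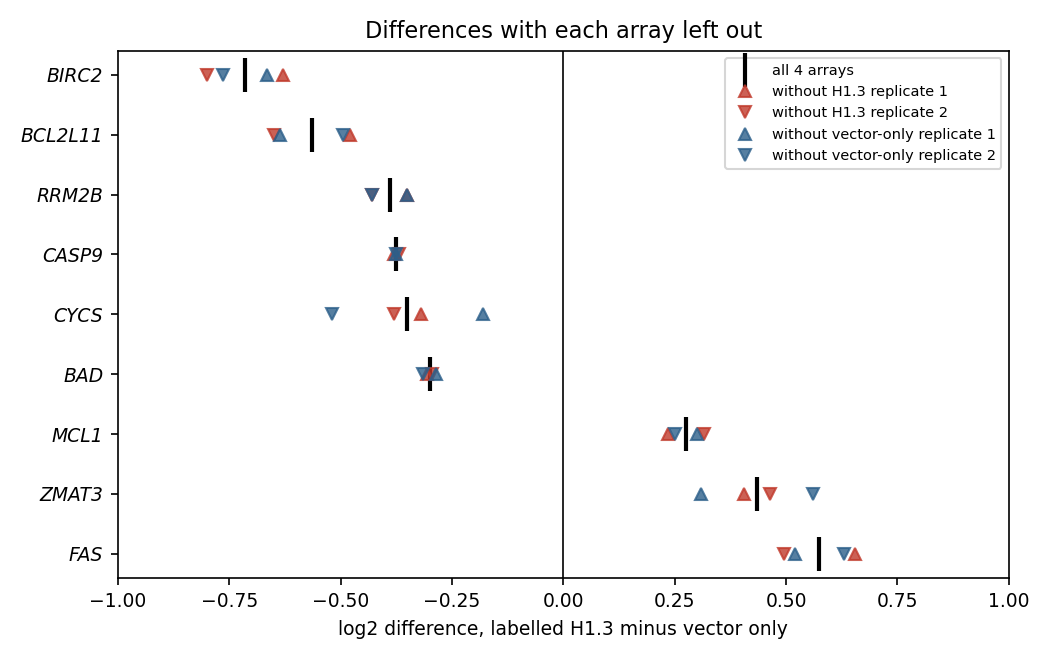
Log2 difference, arrays labelled H1.3 minus vector-only arrays, for the 9 genes at an unadjusted limma p under 0.05, with all 4 arrays (black bars) and with each array left out (triangles). The values of BIRC2 run from -0.80 to -0.63, those of CASP9 from -0.38 to -0.37 and those of FAS from 0.50 to 0.66, while CYCS runs from -0.52 to -0.18.

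To see whether surrounding genes differed in the same direction, each of the 36 genes was set beside up to 20 neighbours on the genome, the 10 nearest measured genes on each side with a mean level at or above 6.84, the median of all clusters with a symbol. The order is that of the RefSeq gene table. BIRC2 lay on chromosome 11 between YAP1 (-0.59) and TMEM123 (-0.70), and all 20 neighbours, from PANX1 to NPAT, had negative differences with a median of -0.66. Its own difference of -0.72 thus lay close to those around it. A neighbour median this low or lower was found for 0.506% of 18365 genes placed. BAD, also on chromosome 11, had 20 negative neighbours of 20 and a neighbour median of -0.29, beside its own -0.30. All neighbours were negative for 1.86% of genes placed.

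MCL1, on chromosome 1, had 19 positive neighbours of 20 and a neighbour median of 0.26, beside its own 0.28, and 1.00% of genes placed had a median as high or higher. RRM2B, on chromosome 8, had 19 negative neighbours of 20 with a median of -0.21. TP53INP1 on the same chromosome had a neighbour median of -0.23 but a difference of only -0.07. BCL2L1, on chromosome 20, went the other way from its surroundings, at 0.17 among neighbours with a median of -0.29. PHLDA3 had a neighbour median of 0.20 and CYCS one of -0.19. With an array left out, the neighbour median ran from -0.26 to -0.08 for CYCS, from 0.17 to 0.30 for MCL1 and from -0.71 to -0.47 for BIRC2. What part a shift of the surrounding genes had in the differences of these genes was not tested.

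For the other 28 members the neighbour medians lay between -0.13 and 0.09. They include FAS, at 0.58 among neighbours with a median of -0.01, of which 10 were positive and 10 negative. ZMAT3 measured 0.44 beside a neighbour median of -0.08, BCL2L11 -0.57 beside 0.09, and CASP9 -0.38 beside -0.04. The nearest genes did not always follow these medians. CASP9 lay between EFHD2 (-0.42) and DNAJC16 (-0.27), 14 of its 20 neighbours were negative, and their median ran from -0.23 without vector-only replicate 1 to 0.08 without vector-only replicate 2. FAS lay between RNLS (0.01) and LIPA (0.47), with neighbour medians from -0.10 to 0.02 with an array left out. Those of ZMAT3 ran from -0.14 to -0.02 and those of BCL2L11 from 0.03 to 0.14, opposite in sign to the genes themselves.

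**Figure D4:**
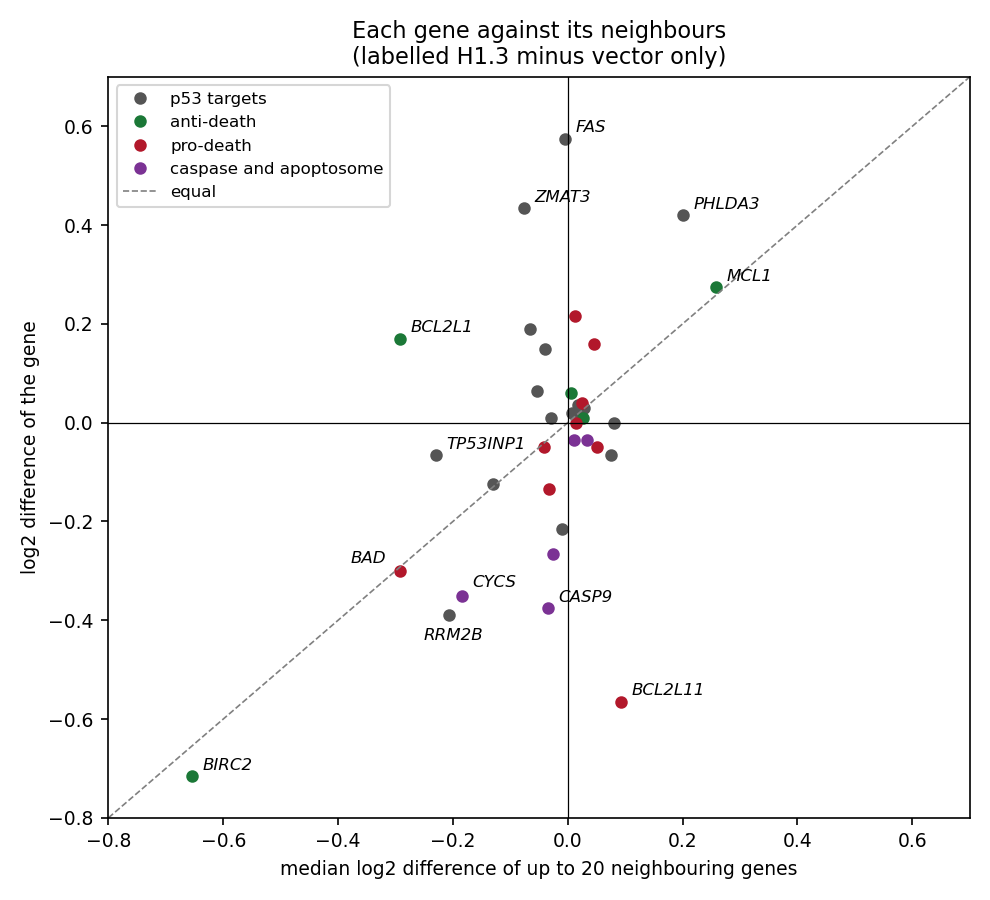
Log2 difference of each of the 36 genes (vertical axis) against the median log2 difference of up to 20 neighbouring genes (horizontal axis), both as arrays labelled H1.3 minus vector-only arrays; the dashed line marks equal values. BIRC2 (-0.72 against -0.66), BAD (-0.30 against -0.29) and MCL1 (0.28 against 0.26) lie on or near the line. FAS, ZMAT3, BCL2L11, BCL2L1 (0.17 against -0.29) and CASP9 (-0.38 against -0.04) are among those away from it.

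A second list held 30 further p53 targets, of which 29 were measured. None passed limma over all clusters, and 15 differences were positive and 14 negative, with a median of 0.02. At an unadjusted limma p under 0.05 stood 6 (20.7%, beside 11.5% of all clusters), 2 with a positive and 4 with a negative difference. The 3 of smallest p follow, and they include both positive ones. TRIM22, an antiviral protein that interferon also induces, had log2 levels of 7.62 and 8.17 in the arrays labelled H1.3, against 6.87 and 6.84 in the vector-only arrays, a difference of 1.04 ± 0.18 (SE) with a limma adjusted p of 0.0798. DRAM1, a lysosomal protein of autophagy, had 7.61 and 7.55 in the arrays labelled H1.3, against 6.59 and 7.03 in the vector-only arrays, a difference of 0.77 and an adjusted p of 0.111. BTG1, an antiproliferative protein, had 9.30 and 9.25 in the arrays labelled H1.3, against 9.75 and 9.66 in the vector-only arrays, a difference of -0.43 and an adjusted p of 0.184. The neighbour medians of these 3 genes were 0.09, -0.02 and -0.02, and the sign turned for DRAM1 and BTG1 with an array left out.

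Of 13 genes for p53 relatives and regulators, 11 were measured and none passed limma over all clusters. CHEK1, a checkpoint kinase, had log2 levels of 8.25 and 8.47 in the arrays labelled H1.3, against 9.08 and 9.04 in the vector-only arrays, a difference of -0.70 at a limma adjusted p of 0.0821. ATM, the kinase that signals DNA breaks to p53, had 6.51 and 7.08 in the arrays labelled H1.3, against 7.67 and 7.63 in the vector-only arrays, a difference of -0.86 at a limma adjusted p of 0.121. Both groups of values were separate, and both genes lie on chromosome 11 among neighbours that were negative in 20 of 20 cases, with medians of -0.59 for CHEK1 and -0.65 for ATM. CHEK2, a related kinase on chromosome 22, differed by -0.29 with an adjusted p of 0.549. The list's median difference was -0.08.

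Of 20 further apoptosis genes, 17 were measured on clusters of their own, with a median difference of -0.02, and none passed. BNIP3L, a mitophagy receptor related to BH3-only proteins, had log2 levels of 9.59 and 9.61 in the arrays labelled H1.3, against 10.38 and 10.11 in the vector-only arrays, a difference of -0.65 with a limma adjusted p of 0.108. Its 20 neighbours on chromosome 8 were all negative, with a median of -0.42. BNIP3, its relative, had 9.19 and 8.28 in the arrays labelled H1.3, against 10.64 and 8.87 in the vector-only arrays; the vector-only replicates differed by 1.77, more than the group difference of -1.02. BOK, a BAX relative, differed by -0.22.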

How the data were processed

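RNA from OVCAR-3 cells was measured on 4 one-colour Affymetrix arrays, 2 per group. The authors deposited log2 values for 33297 transcript clusters, rounded to 2 decimals. Per the submitters' processing notes, the tools were RMA and Affymetrix Expression Console; their versions and the genome build are not stated. No probe intensities were used. Precision is limited by the number of arrays; log2 differences had a median standard error of 0.13.

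Symbols came from the platform annotation, updated through gene identifiers to RefSeq (GRCh38.p14). Of the clusters, 19460 had 1 symbol, 1754 several and 12083 were unnamed here. The design text names an exon array, whereas the identifiers match the annotation of a gene array. A gene was represented by its single-symbol cluster of highest mean. The comparison used lmFit and eBayes of limma 3.58.1 (R 4.3.3; two-sided, no covariate) over 21214 clusters with a symbol, with Benjamini-Hochberg adjustment at 0.05. The steps were tested on simulated data. Figures used matplotlib 3.10.9.

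The genes named are all measured members, H1-3 and, from each other list, genes that passed or else the 3 of smallest p. Members and lists were chosen with earlier results of these data known. Alternatives changed moderation, scaling, filter, clusters tested, threshold and arrays used.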

Additional observations from a re-analysis of the deposited data

How the results depend on the processing

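In limma 0 of the 36 members passed in either direction with all 4 arrays, with 9 at an unadjusted p under 0.05. The count of members called higher stayed at 0 in every alternative run. The count called lower was 1, BIRC2, with a robust intensity trend, with the adjusted threshold at 0.10, and with a 1.5-fold minimum beside an unadjusted threshold of 0.05; it was 0 otherwise. Over all clusters the 107 calls became 245 with the robust trend, 50 with arrays at one median, 25 without clusters below the median level, 9 without moderation, 4 with all transcript clusters and 0 in each leave-one-out fit, where a lone array is assumed to vary like the other group. H1-3 stayed negative and uncalled, from -1.07 to -0.30 with an array left out.

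Medians with an array left out ran from 0.01 to 0.075 for p53 targets and 0.00 to 0.155 for anti-death genes. They ran from -0.22 to 0.105 for BAX, BAK1 and BH3-only genes and -0.37 to -0.015 for caspase and apoptosome genes. For the other lists they ran from -0.02 to 0.045 for other p53 targets and -0.09 to -0.015 for other apoptosis genes. They ran from -0.095 to -0.04 for p53 regulators and -0.07 to 0.015 for CDK inhibitors and growth arrest genes. A second quantile normalization moved the medians to -0.01 for other p53 targets, 0.01 for other apoptosis genes, -0.042 for p53 regulators, 0.041 for p53 targets and 0.084 for anti-death genes. Leaving out clusters below the median level moved the medians to 0.035 for other p53 targets, -0.045 for p53 regulators and 0.115 for anti-death genes. The same filter gave 0 for BAX, BAK1 and BH3-only genes and -0.022 for CDK inhibitors and growth arrest genes. The cause was not tested.

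BCL2 was -0.034 after the second quantile normalization. With an array left out, values ran from -0.19 to 0.32 for GADD45A, -0.245 to 0.115 for PLK2, -0.065 to 0.085 for MDM2, -0.155 to 0.195 for SESN1, -0.005 to 0.075 for TP53I3, -0.135 to 0.195 for BBC3, -0.225 to 0.095 for TP53INP1, -0.185 to 0.205 for BCL2, -0.005 to 0.325 for BAK1, -0.22 to 0.12 for BIK, -0.285 to 0.185 for PMAIP1, -0.025 to 0.105 for HRK, -0.11 to 0.04 for APAF1 and -0.115 to 0.045 for DIABLO, whose signs turned. Without a change of sign they ran from -0.195 to -0.055 for DDB2, 0.08 to 0.3 for AEN, 0.01 to 0.29 for PLK3, -0.235 to -0.035 for BMF and 0 to 0.12 for XIAP.

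With a replicate block by number, 0 members were called higher and 0 lower, 0 clusters passed in all (2195 at an unadjusted p under 0.05), and H1-3 kept its difference of -0.69 at an adjusted p of 0.480. The replicate differences of the 2 groups correlated at 0.06 over clusters, and no label gives same-numbered arrays a common batch, so the numbers were treated as unpaired. Of the members, 8 had a mean below the median level of all clusters, where array signal limits what can be seen.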

Other observations

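A list of CDK inhibitors and growth arrest genes other than CDKN1A held 13 genes. Of these 12 were measured, and none passed limma over all clusters. Their median log2 difference was -0.06, with 4 positive and 8 negative. CDKN2B, which encodes the CDK inhibitor p15, had log2 levels of 8.20 and 8.45 in the arrays labelled H1.3, against 7.70 and 8.08 in the vector-only arrays, a difference of 0.44 at an adjusted p of 0.367. RBL2, the retinoblastoma relative p130, had 7.24 and 7.60 in the arrays labelled H1.3, against 8.0 and 7.69 in the vector-only arrays, a difference of -0.43 at an adjusted p of 0.394. GADD45G, a relative of GADD45A, differed by -0.25 with an adjusted p of 0.474. None of these 3 genes had overlapping groups.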
